A study of Homo sapiens with 27 samples.

Results

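The genes described here are 37 known targets of the hypoxia-inducible factors (HIFs), taken by symbol from the count table. All 37 had a matching Ensembl identifier among the 57773 in the count table, and 36 of them passed the filter on low counts, so that 17016 genes were tested. Expression was measured by RNA-seq in 27 libraries from 9 populations of 786-O cells, an established clear cell renal cell carcinoma line with a mutated VHL gene, at 3 libraries a population. All populations, the control included, had been infected with a MuLE lentivirus carrying an sgRNA, spCas9 and a resistance gene, PuroR or NeoR, and they are bulk populations and not clones. One population carried the control guide sgCtrl, 2 carried a guide to KDM5C alone (sgKDM5C_4 or sgKDM5C_5), 2 a guide to KDM5D alone (sgKDM5D_2 or sgKDM5D_4), and 4 a guide to each gene (sgKDM5C_4_sgKDM5D_2, sgKDM5C_4_sgKDM5D_4, sgKDM5C_5_sgKDM5D_2 and sgKDM5C_5_sgKDM5D_4). KDM5C and KDM5D are histone H3 lysine demethylases encoded on the X and Y chromosomes. The question was how expression of each target differs between these populations, with guides kept apart. The target sequences of both KDM5C guides overlap within one exon, whereas the KDM5D guides lie in different exons.

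HIFs are dimers of an oxygen-regulated alpha subunit, HIF-1α (HIF1A) or HIF-2α (EPAS1), with the constant subunit ARNT. When oxygen is present, prolyl hydroxylases (the EGLN proteins) mark the alpha subunits for the ubiquitin ligase of which the VHL protein is the recognition part. Cells without working VHL therefore keep HIF active in oxygen, and HIF-regulated genes for vessel growth, glucose uptake, lipid storage and matrix modification belong to the characteristic expression pattern of clear cell renal cell carcinoma. 786-O is known as a line that depends on HIF-2α and lacks HIF-1α protein.

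Total counts ranged from 20172482 to 43383929 per library, and values are given as CPM, the usual scaling of counts to the library's total, after TMM scaling. At this depth 3 counts correspond to 0.0698 to 0.143 CPM. KDM5C transcript was at 119 to 132 CPM in sgCtrl and at 30.9 to 45.4 CPM in the 18 libraries with a KDM5C guide, against 112 to 130.1 CPM in the libraries labelled with a KDM5D guide alone. KDM5D transcript was at 11.4 to 14.5 CPM in sgCtrl and was higher in all 24 mutant libraries (19.0 to 47.7 CPM), so that it gives no check of the sgKDM5D labels, and those populations are named by their labels throughout. The study also shows western blots of both proteins in 786-O populations with these guides, which are outside the counts used here. The 3 libraries labelled sgKDM5D_4 stood apart from the other 24 on the first principal component, which held 45.6% of the variance over 1000 genes. Libraries were also placed on the first principal component of the deviations from population means. The 4 lowest on it (-28.7 to -15.02) were sgCtrl replicate 2, sgKDM5C_5 replicate 2, sgKDM5C_4_sgKDM5D_2 replicate 1 and sgKDM5C_4_sgKDM5D_4 replicate 3. They were taken by rank at 1 end only. Others lay about as far at the opposite end, among them sgCtrl replicate 1 (18.04), sgKDM5D_4 replicate 3 (15.35) and sgKDM5C_5_sgKDM5D_2 replicate 2 (14.96). Kidney tumour markers were present in every library (PAX8 at 254 to 392 CPM and VIM at 1520 to 2070 CPM), whereas each of 4 leukocyte markers (PTPRC, CD3E, CD14 and LYZ) was at most at 0.568 CPM and each of 3 endothelial markers (CDH5, VWF and KDR) at most at 0.63 CPM. Of the proximal tubule markers LRP2, CUBN, SLC34A1 and AQP1, CUBN was the highest with up to 2.53 CPM. CUBN was called higher in sgKDM5C_4_sgKDM5D_4 (1.35 ± 0.25 on the log2 scale, with the standard error) and SLC34A1 in sgKDM5C_5_sgKDM5D_2 (1.90 ± 0.31, at 0.859 to 1.26 CPM), and both were higher in the double mutants than in the KDM5D single mutants (0.87 ± 0.16 and 2.16 ± 0.26). Kidney tumour markers differed too, with CDH6 higher and KRT8 and KRT18 lower in sgKDM5C_5_sgKDM5D_2 (1.34 ± 0.21, -0.97 ± 0.085 and -1.08 ± 0.11), and PAX2 lower and CDH6 higher in sgKDM5D_4 (-1.24 ± 0.13 and 1.19 ± 0.21). Of 7 tested kidney tumour markers, 2 were called lower in sgKDM5C_4 (against 1.77% of all tested genes) and 1 in sgKDM5C_5 (2.97%). In sgKDM5C_4_sgKDM5D_2 1 was lower (2.23%), and in sgKDM5C_4_sgKDM5D_4 1 was lower (3.24%) and 1 higher (5.86%). The part of these marker differences in the results for the targets was not tested. Of 4 fibroblast markers, COL1A1 was at 2.47 to 16.7 CPM and called higher in sgKDM5D_4, a difference whose part in the results for that population was not tested, and COL1A2, DCN and PDGFRA were at most at 0.377 CPM. The labels do not say whether replicates were separate cultures, so p-values measure the spread between these libraries, which may be technical.

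The transcripts of the HIF pathway itself differed between populations. HIF1A was at 4.03, 5.14 and 5.51 CPM in sgCtrl and at 115, 106 and 105 CPM in the libraries labelled sgKDM5D_4 (log2 fold change 4.46 ± 0.11, adjusted p = 2.9e-21, where ± gives the standard error of a log2 fold change). The 21 libraries of the other mutant populations held 3.69 to 6.72 CPM, so no other library came near the sgKDM5D_4 level. Along chromosome 14, the median log2 fold change of the 50 tested genes next to HIF1A was 0.73 in the same comparison, whose part in the HIF1A difference was not tested. EPAS1, which encodes the alpha subunit used by 786-O, was at 91.1, 85.3 and 97.7 CPM in sgCtrl and rose in sgKDM5C_4 (0.74 ± 0.11, adjusted p = 1.3e-05), sgKDM5C_5_sgKDM5D_2 (1.71 ± 0.11, adjusted p = 4.9e-12) and sgKDM5C_5_sgKDM5D_4 (0.9992 ± 0.11, adjusted p = 7.8e-08). In sgKDM5C_5_sgKDM5D_2 it stood at 283, 316 and 299 CPM, above every other library of the series. ARNT was called in no comparison with sgCtrl, with log2 fold changes of -0.20 to 0.15, and VHL transcript likewise in none (-0.36 to 0.27). Of 12 tested genes of this machinery, 2 were called higher in sgKDM5C_4 (against 3.21% of all tested genes), 1 in sgKDM5C_5 (2.03%), 2 in sgKDM5D_4 (10.7%), 4 in sgKDM5C_5_sgKDM5D_2 (7.92%) and 2 in sgKDM5C_5_sgKDM5D_4 (3.3%), and 1 each was called lower in sgKDM5D_4 (7.44%) and in sgKDM5C_4_sgKDM5D_4 (3.24%). The shares in sgKDM5D_4 are near the background.

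**Figure D1:**
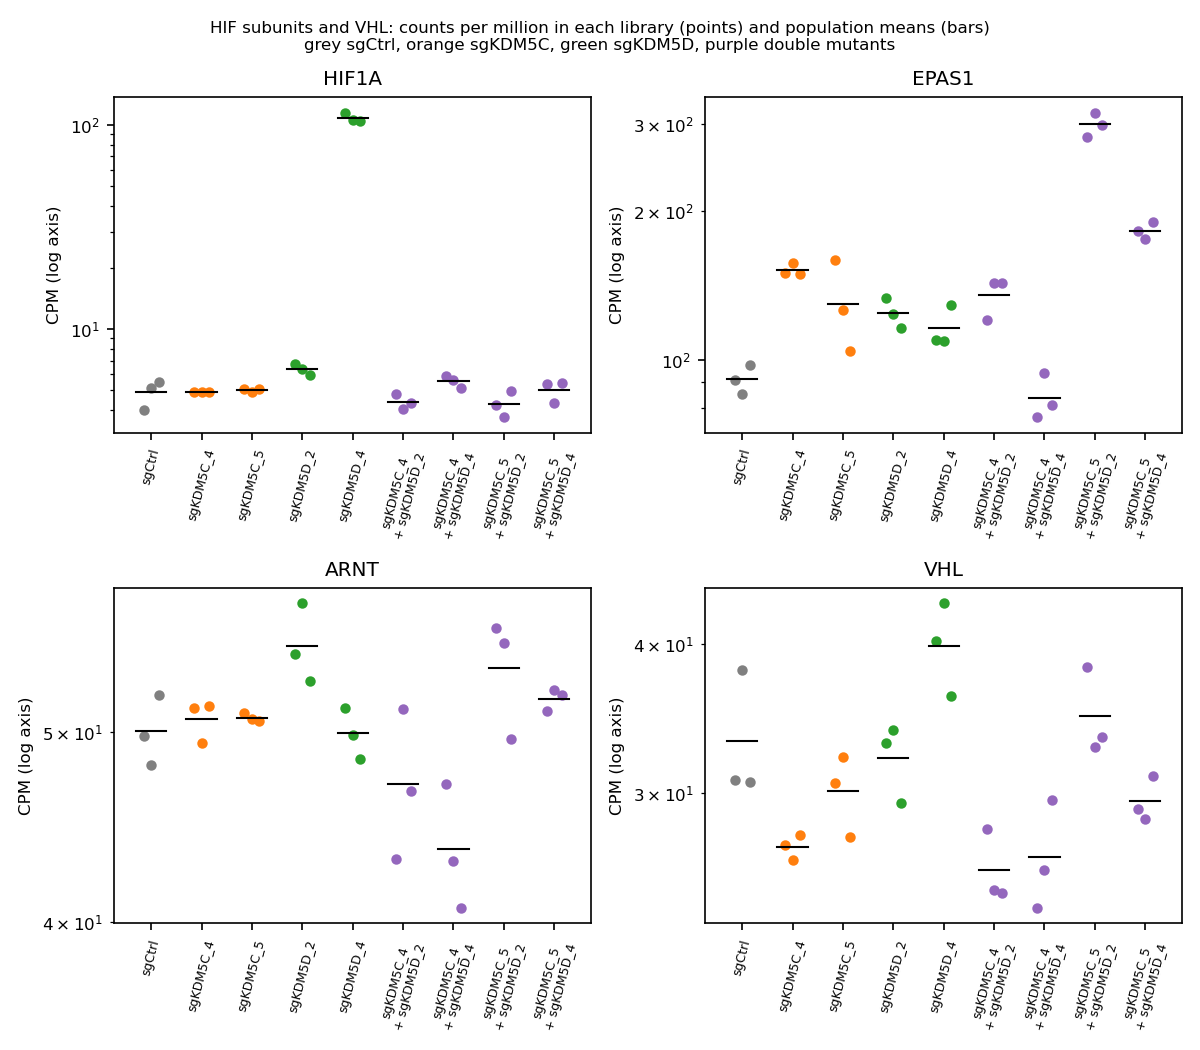
CPM (log axis) of HIF1A, EPAS1, ARNT and VHL in each library (points) of the 9 populations, with population means as bars. HIF1A stands under 7 CPM in every population except sgKDM5D_4, where it is at 105 to 115 CPM, and EPAS1 is highest in sgKDM5C_5_sgKDM5D_2.

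Over all 9 populations, 34 of the 36 tested targets differed (adjusted p under 0.001 in edgeR's quasi-likelihood test of any difference and a range of population means over 1.5-fold), against 46.3% of all tested genes. INSIG2 and ANKRD37 did not pass. Against sgCtrl, a target was called at a Benjamini-Hochberg adjusted p under 0.001 over all tested genes and a change over 1.5-fold, and 28 of the 36 were called in at least 1 of the 8 mutant populations. Of these, 17 were called only higher, 4 only lower and 7 in both directions, with 62 higher and 13 lower calls in all. Since every population was compared with the same 3 sgCtrl libraries, the 8 comparisons are not independent of each other. In bulk libraries, fewer expressing cells and less RNA per cell cannot be told apart.

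The share of targets called differed widely between populations. In sgKDM5C_4, 7 of 36 targets were called higher and 1 lower, against 3.21% and 1.77% of all tested genes, and in sgKDM5C_5 8 were higher and 0 lower, against 2.03% and 2.97%. For sgKDM5D_2 the counts were 2 higher and 1 lower, against 1.89% and 1.34%. For sgKDM5D_4 they were 6 higher and 7 lower, against 10.7% and 7.44%, so that the lower calls stood further above the background than the higher ones. Among double mutants, sgKDM5C_4_sgKDM5D_2 had 8 higher and 0 lower (background 3.83% and 2.23%) and sgKDM5C_4_sgKDM5D_4 had 2 higher and 3 lower (background 5.86% and 3.24%). The count was largest in sgKDM5C_5_sgKDM5D_2, with 18 of 36 higher, or 50%, and 0 lower (background 7.92% and 4.77%), followed by sgKDM5C_5_sgKDM5D_4 with 11 higher and 1 lower (background 3.3% and 3.87%). At an unadjusted p under 0.05, edgeR placed 5 targets lower in sgKDM5C_5, 5 in sgKDM5C_4_sgKDM5D_2 and 4 in sgKDM5C_5_sgKDM5D_2, while DESeq2, at an adjusted p under 0.001 and over 1.5-fold, called 0 lower in each of these populations. The share of all tested genes at that unadjusted threshold was not counted, here or below. Unadjusted counts therefore give no result about the targets.

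The median log2 fold change of the 36 targets was 0.28 in sgKDM5C_4, 0.16 in sgKDM5C_5, 0.13 in sgKDM5D_2, -0.01 in sgKDM5D_4, 0.26 in sgKDM5C_4_sgKDM5D_2, -0.13 in sgKDM5C_4_sgKDM5D_4, 0.67 in sgKDM5C_5_sgKDM5D_2 and 0.35 in sgKDM5C_5_sgKDM5D_4. Over all tested genes the medians lay between -0.013 and 0.017. The population mean was highest in sgKDM5C_5_sgKDM5D_2 for 20 of the 36 targets, and it was lowest in sgKDM5D_4 for 14 and in sgKDM5C_4_sgKDM5D_4 for 11. How often each population was highest or lowest over all tested genes was not counted. These numbers therefore have no background beside them and are not read as a trait of the targets. The list of targets was chosen with earlier results of these data known, so no share of targets called is independent of the data. The study also displayed 4 of the targets (IGFBP1, F3, DPYSL4 and DTNA) as KDM5C-related genes from these same libraries, so their calls are not independent evidence of a direction. Without these 4, the higher and lower calls among the other 32 were 3 and 1 in sgKDM5C_4, 4 and 0 in sgKDM5C_5, 2 and 1 in sgKDM5D_2, 6 and 5 in sgKDM5D_4, 4 and 0 in sgKDM5C_4_sgKDM5D_2, 0 and 3 in sgKDM5C_4_sgKDM5D_4, 14 and 0 in sgKDM5C_5_sgKDM5D_2 and 7 and 1 in sgKDM5C_5_sgKDM5D_4. The background shares are those given above for each population. When the 4 libraries lowest on the component of deviations from population means were left out, the calls in both directions together numbered 7 in sgKDM5C_4, 8 in sgKDM5C_5, 3 in sgKDM5D_2, 13 in sgKDM5D_4, 7 in sgKDM5C_4_sgKDM5D_2, 4 in sgKDM5C_4_sgKDM5D_4, 17 in sgKDM5C_5_sgKDM5D_2 and 12 in sgKDM5C_5_sgKDM5D_4. Over all tested genes these fits called 781, 709, 478, 2851, 774, 1298, 2039 and 1120, in the same order. Libraries at the opposite end of that component were kept in these fits.

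**Figure D2:**
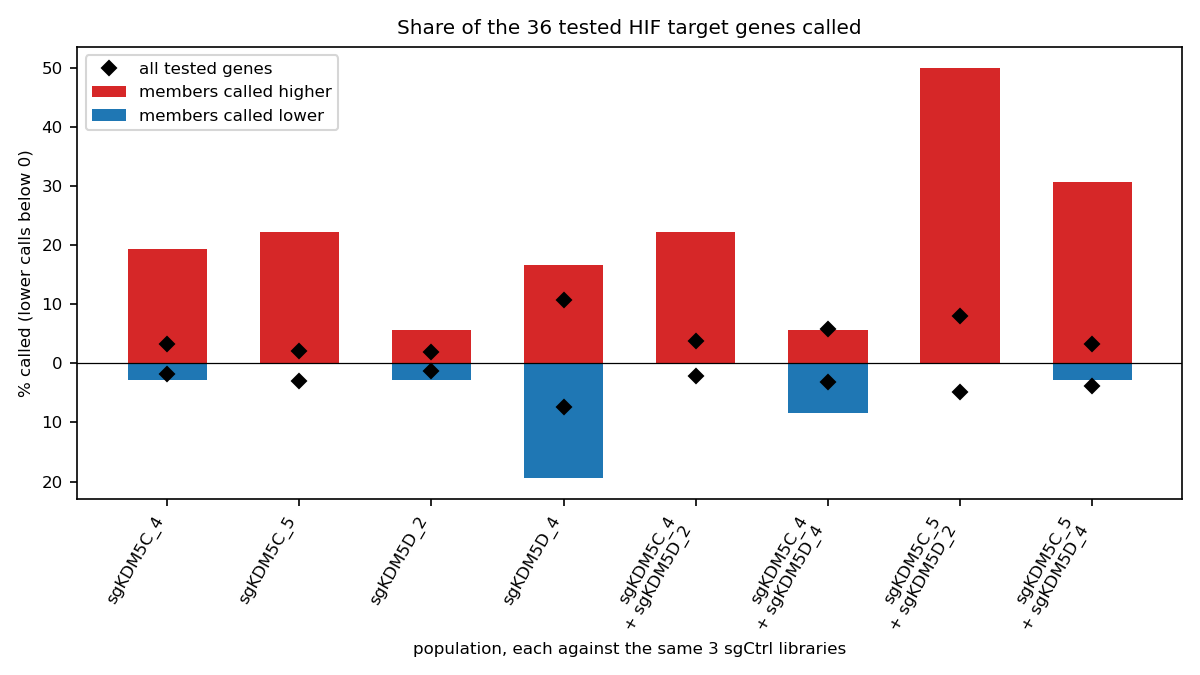
Share of the 36 tested targets called higher (red bars, above 0) and lower (blue bars, below 0) against sgCtrl in each population, in percent, with the share of all 17016 tested genes as diamonds. The red bar reaches 50% in sgKDM5C_5_sgKDM5D_2, where 7.92% of all genes were called higher, while in sgKDM5C_4_sgKDM5D_4 the red bar is near its diamond.

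**Figure D3:**
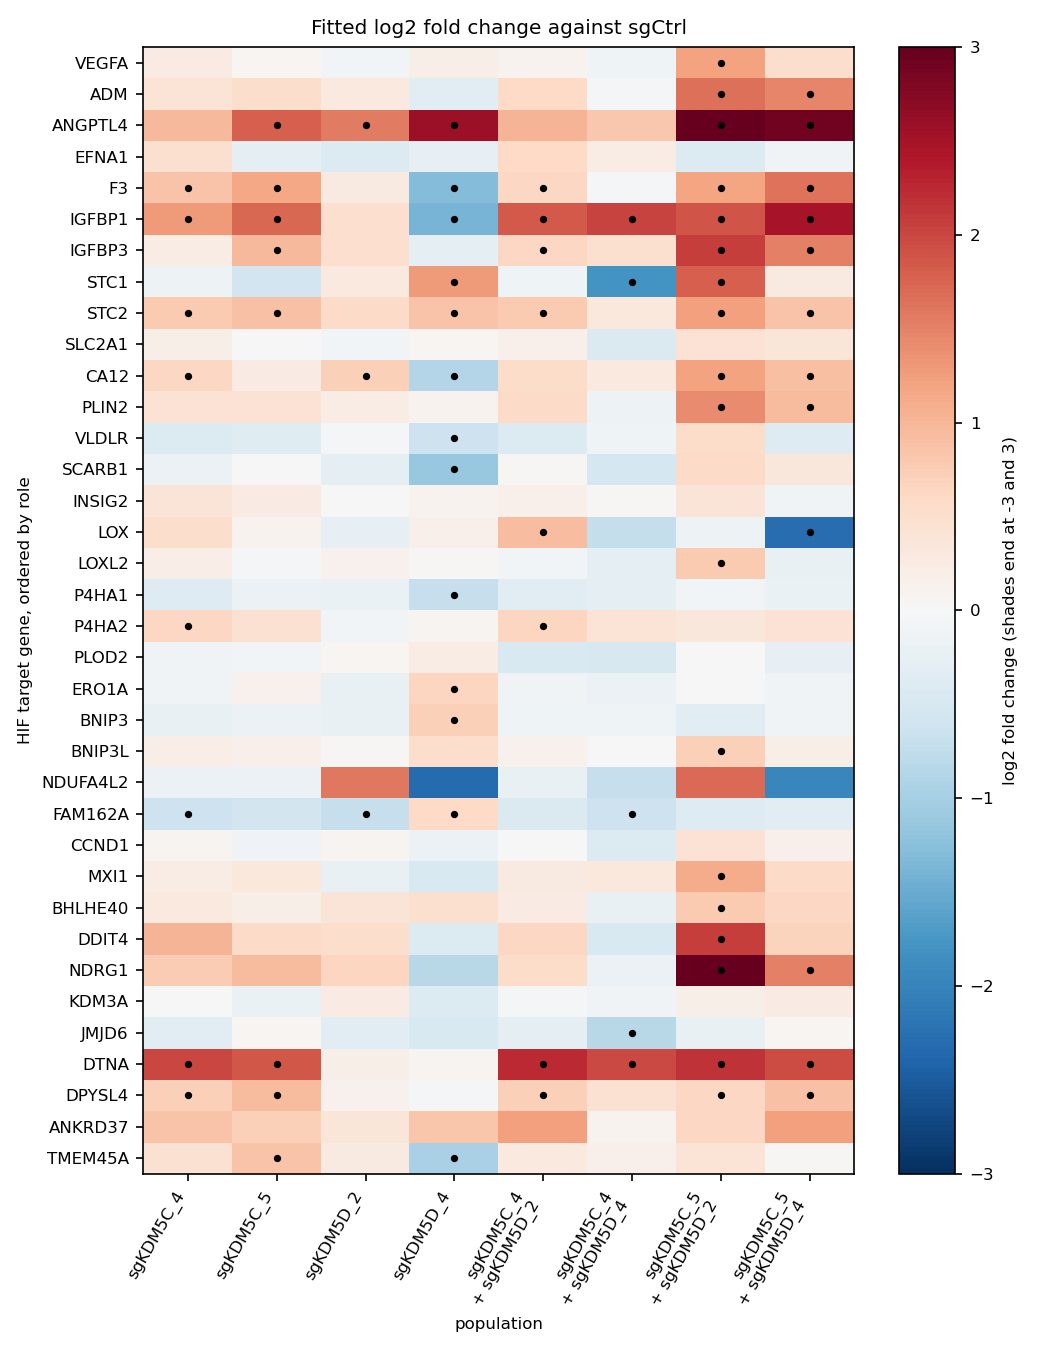
Fitted log2 fold change of each tested target (rows, ordered by role) against sgCtrl in the 8 mutant populations (columns), in red for higher and blue for lower, with a dot where the target was called. IGFBP1 and DTNA carry dots in all 6 populations with a KDM5C guide, and the column of sgKDM5C_5_sgKDM5D_2 has the most dots, 18.

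Levels of the targets in sgCtrl spanned a wide range. Per kilobase of annotated exon, IGFBP3 was the highest with 202 CPM per kb, followed by the glucose transporter gene SLC2A1 with 119 and CCND1 with 81.0 CPM per kb. DTNA, ANKRD37, NDUFA4L2 and CA9 were at the lower end, with 0.0878, 0.0973, 0.0776 and 0.00804 CPM per kb. These are levels and not differences between populations. Exons of 16 targets overlap those of another annotated gene, mostly on the opposite strand, and whether counting used strand is not given in the sources used here, so that their counts are uncertain to that extent. The overlap covered 40.3% of ANKRD37 exons and 35.7% of CA9 exons, and at most 12.8% of the exons of the other targets.

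Among the secreted regulators of growth factor and calcium signalling, IGFBP1 (ENSG00000146678, chr7:45927959-45933259, positions in GRCh37 here and below), which encodes a binding protein that holds insulin-like growth factors in solution, differed most between populations. IGFBP1 was at 5.89, 5.82 and 6.01 CPM in sgCtrl, 16.0, 13.7 and 13.4 CPM in sgKDM5C_4 and 19.7, 21.2 and 18.0 CPM in sgKDM5C_5. IGFBP1 stood at 8.26, 8.06 and 8.73 CPM in the libraries labelled sgKDM5D_2 and at 2.05, 2.38 and 2.27 CPM in those labelled sgKDM5D_4. All 6 libraries of the KDM5C single mutants lay above all of sgCtrl, and the sgKDM5D_4 libraries lay below it. IGFBP1 reached 20.8, 20.2 and 22.0 CPM in sgKDM5C_4_sgKDM5D_2, 21.1, 25.3 and 26.1 CPM in sgKDM5C_4_sgKDM5D_4, 20.3, 20.8 and 24.8 CPM in sgKDM5C_5_sgKDM5D_2 and 33.4, 31.7 and 32.6 CPM in sgKDM5C_5_sgKDM5D_4. IGFBP1 thus rose in all 6 populations with a KDM5C guide, where its log2 fold change was 1.28 to 2.46, and no library of these populations overlapped the other 9. It fell by 1.40 on the log2 scale in sgKDM5D_4 (SE 0.12, adjusted p = 4e-10), while in sgKDM5D_2 the difference of 0.50 ± 0.11, adjusted p = 0.0011 did not reach the thresholds. The 50 tested neighbours of IGFBP1 on chromosome 7 showed a median log2 change of 0.61 in sgKDM5D_4, opposite in sign to IGFBP1 itself.

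IGFBP3 (ENSG00000146674, chr7:45951844-45961473), which lies next to IGFBP1 and encodes the main carrier of insulin-like growth factors in serum, showed a narrower pattern. Its levels were 876, 799 and 1099 CPM in sgCtrl, 3979, 3951 and 3710 CPM in sgKDM5C_5_sgKDM5D_2 and 2631, 2615 and 2709 CPM in sgKDM5C_5_sgKDM5D_4, with no overlap. IGFBP3 rose in sgKDM5C_5 (0.97 ± 0.11, adjusted p = 1.1e-07), sgKDM5C_4_sgKDM5D_2 (0.63 ± 0.11, adjusted p = 5.9e-05), sgKDM5C_5_sgKDM5D_2 (2.07 ± 0.11, adjusted p = 1.2e-13) and sgKDM5C_5_sgKDM5D_4 (1.52 ± 0.11, adjusted p = 2.1e-11). In sgKDM5C_4 the log2 fold change was 0.23 ± 0.11 (adjusted p = 0.12).

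The stanniocalcins STC1 and STC2 are secreted glycoproteins with roles in calcium and phosphate handling. STC1 was at 9.79, 9.52 and 11.4 CPM in sgCtrl, 10.3, 8.57 and 8.83 CPM in sgKDM5C_4 and 8.39, 6.55 and 5.78 CPM in sgKDM5C_5. STC1 stood at 16.0, 11.6 and 9.97 CPM in the libraries labelled sgKDM5D_2 and at 25.8, 23.0 and 26.1 CPM in those labelled sgKDM5D_4. The sgKDM5D_4 libraries were above all of sgCtrl, while sgKDM5D_2 overlapped it. STC1 reached 8.79, 8.08 and 11.3 CPM in sgKDM5C_4_sgKDM5D_2, 2.19, 3.14 and 3.45 CPM in sgKDM5C_4_sgKDM5D_4, 39.4, 37.3 and 29.4 CPM in sgKDM5C_5_sgKDM5D_2 and 12.2, 11.5 and 13.3 CPM in sgKDM5C_5_sgKDM5D_4. STC1 rose in sgKDM5D_4 (1.28 ± 0.16, adjusted p = 2.4e-07) and in sgKDM5C_5_sgKDM5D_2 (1.79 ± 0.16, adjusted p = 2e-09) and fell by 1.80 on the log2 scale in sgKDM5C_4_sgKDM5D_4 (SE 0.19, adjusted p = 2.2e-08), its only call to lower levels. STC2 was at 103, 94.4 and 89.5 CPM in sgCtrl, 161, 168 and 163 CPM in sgKDM5C_4 and 182, 165 and 179.9 CPM in sgKDM5C_5. STC2 stood at 124, 147 and 155 CPM in the libraries labelled sgKDM5D_2 and at 175, 168 and 172 CPM in those labelled sgKDM5D_4. Every mutant library of STC2 lay above sgCtrl. STC2 reached 157, 166 and 169 CPM in sgKDM5C_4_sgKDM5D_2, 119.7, 123 and 116 CPM in sgKDM5C_4_sgKDM5D_4, 227, 249 and 192 CPM in sgKDM5C_5_sgKDM5D_2 and 179, 181 and 163 CPM in sgKDM5C_5_sgKDM5D_4. STC2 rose in 6 populations, with log2 fold changes of 0.78 to 1.22, and was not called in sgKDM5D_2 (0.57 ± 0.082) or sgKDM5C_4_sgKDM5D_4 (0.32 ± 0.082), where its change was below 1.5-fold.

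Of 5 targets with roles in vessels and coagulation, ANGPTL4 (ENSG00000167772, chr19:8428173-8439254), which encodes a secreted inhibitor of lipoprotein lipase, was the only one called in both KDM5D single mutants. ANGPTL4 was at 0.823, 1.23 and 0.732 CPM in sgCtrl, 1.88, 2.14 and 1.497 CPM in sgKDM5C_4 and 3.31, 3.22 and 3.29 CPM in sgKDM5C_5. ANGPTL4 stood at 3.82, 2.38 and 2.12 CPM in the libraries labelled sgKDM5D_2 and at 5.97, 6.20 and 4.54 CPM in those labelled sgKDM5D_4. All 24 mutant libraries lay above the highest sgCtrl library, although the gap was small for sgKDM5C_4_sgKDM5D_4. ANGPTL4 reached 1.61, 2.06 and 2.07 CPM in sgKDM5C_4_sgKDM5D_2, 1.44, 1.28 and 2.17 CPM in sgKDM5C_4_sgKDM5D_4, 7.16, 8.84 and 7.02 CPM in sgKDM5C_5_sgKDM5D_2 and 6.24, 8.05 and 6.94 CPM in sgKDM5C_5_sgKDM5D_4. ANGPTL4 rose in sgKDM5C_5 (1.79 ± 0.24, adjusted p = 3.6e-06), sgKDM5D_2 (1.56 ± 0.25, adjusted p = 6.5e-05), sgKDM5D_4 (2.56 ± 0.24, adjusted p = 8.9e-10), sgKDM5C_5_sgKDM5D_2 (3.02 ± 0.23, adjusted p = 1e-10) and sgKDM5C_5_sgKDM5D_4 (2.90 ± 0.23, adjusted p = 2.2e-10). It was not called in the 3 populations with sgKDM5C_4, whose log2 fold changes were 0.80 to 1.01. These values rest on 19 to 211 counts per library.

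F3 (ENSG00000117525, chr1:94994729-95007315) encodes tissue factor, the membrane protein that starts blood coagulation. F3 was at 48.1, 44.6 and 39.0 CPM in sgCtrl, 75.1, 82.0 and 80.8 CPM in sgKDM5C_4 and 93.8, 94.0 and 105 CPM in sgKDM5C_5. F3 stood at 48.7, 51.4 and 57.4 CPM in the libraries labelled sgKDM5D_2 and at 17.5, 18.8 and 17.2 CPM in those labelled sgKDM5D_4. The KDM5C single mutants lay above sgCtrl, sgKDM5D_2 just above it and sgKDM5D_4 far below. F3 reached 66.0, 68.5 and 67.0 CPM in sgKDM5C_4_sgKDM5D_2, 43.8, 40.1 and 42.6 CPM in sgKDM5C_4_sgKDM5D_4, 96.2, 106 and 94.8 CPM in sgKDM5C_5_sgKDM5D_2 and 142, 129 and 137 CPM in sgKDM5C_5_sgKDM5D_4. F3 rose in 5 of the 6 populations with a KDM5C guide, with log2 fold changes of 0.61 to 1.63, and in sgKDM5C_4_sgKDM5D_4 it stayed within the sgCtrl range (-0.057 ± 0.078). It fell by 1.30 on the log2 scale in sgKDM5D_4 (SE 0.082, adjusted p = 5.5e-13).

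VEGFA, the main angiogenic growth factor induced by HIF, was at 148, 136 and 152 CPM in sgCtrl and at 333, 384 and 293 CPM in sgKDM5C_5_sgKDM5D_2, where it rose (1.21 ± 0.12, adjusted p = 7.5e-09). In the 7 other mutant populations its log2 fold change was -0.14 to 0.53, with no call. ADM, which encodes the vasodilator adrenomedullin, was at 46.4, 46.2 and 53.4 CPM in sgCtrl, 155, 163 and 144 CPM in sgKDM5C_5_sgKDM5D_2 and 135, 136 and 129 CPM in sgKDM5C_5_sgKDM5D_4, and it rose in both (1.66 ± 0.16, adjusted p = 6.2e-09, and 1.46 ± 0.16, adjusted p = 8.3e-08). The ephrin ligand gene EFNA1 was called in no population, with log2 fold changes of -0.41 to 0.59.

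DTNA (ENSG00000134769, chr18:32073255-32471808), which encodes α-dystrobrevin of the dystrophin complex, separated the populations by KDM5C guide. DTNA was at 1.47, 1.06 and 1.27 CPM in sgCtrl, 4.32, 5.61 and 5.05 CPM in sgKDM5C_4 and 4.01, 4.84 and 4.92 CPM in sgKDM5C_5. DTNA stood at 1.16, 1.10 and 1.97 CPM in the libraries labelled sgKDM5D_2 and at 1.25, 1.26 and 1.5 CPM in those labelled sgKDM5D_4. DTNA reached 6.22, 5.70 and 5.98 CPM in sgKDM5C_4_sgKDM5D_2, 4.64, 5.13 and 5.16 CPM in sgKDM5C_4_sgKDM5D_4, 5.25, 5.49 and 6.35 CPM in sgKDM5C_5_sgKDM5D_2 and 4.98, 4.99 and 4.79 CPM in sgKDM5C_5_sgKDM5D_4. All 18 libraries with a KDM5C guide (4.01 to 6.35 CPM) lay above the 9 without one (1.06 to 1.97 CPM). DTNA rose in all 6 populations with a KDM5C guide by 1.87 to 2.24 on the log2 scale, and its log2 fold changes were 0.17 ± 0.20 in sgKDM5D_2 and 0.084 ± 0.20 in sgKDM5D_4, with adjusted p = 0.58 and 0.77. Its counts were low, 25 to 241 per library.

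DPYSL4, a dihydropyrimidinase-like gene, followed the same order at a higher level. DPYSL4 was at 32.3, 29.8 and 30.6 CPM in sgCtrl, 53.0, 49.4 and 50.1 CPM in sgKDM5C_4 and 67.9, 56.7 and 55.9 CPM in sgKDM5C_5. DPYSL4 stood at 31.7, 35.9 and 34.2 CPM in the libraries labelled sgKDM5D_2 and at 28.8, 28.4 and 31.3 CPM in those labelled sgKDM5D_4. DPYSL4 reached 45.4, 53.8 and 51.8 CPM in sgKDM5C_4_sgKDM5D_2, 39.2, 46.9 and 41.1 CPM in sgKDM5C_4_sgKDM5D_4, 46.5, 49.3 and 46.3 CPM in sgKDM5C_5_sgKDM5D_2 and 56.8, 58.0 and 55.0 CPM in sgKDM5C_5_sgKDM5D_4. The 18 libraries with a KDM5C guide (39.2 to 67.9 CPM) lay above the 9 others (28.4 to 35.9 CPM). DPYSL4 rose in 5 of these 6 populations (0.62 to 0.96) and was not called in sgKDM5C_4_sgKDM5D_4, where its log2 fold change was 0.46 ± 0.082, adjusted p = 8.4e-05.

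TMEM45A encodes a transmembrane protein. TMEM45A was at 9.14, 12.5 and 9.36 CPM in sgCtrl, 13.2, 15.4 and 14.2 CPM in sgKDM5C_4 and 13.98, 21.7 and 20.5 CPM in sgKDM5C_5. TMEM45A stood at 10.3, 13.2 and 14.1 CPM in the libraries labelled sgKDM5D_2 and at 5.35, 5.74 and 4.67 CPM in those labelled sgKDM5D_4. TMEM45A reached 13.7, 11.9 and 12.7 CPM in sgKDM5C_4_sgKDM5D_2, 11.9, 10.4 and 12.4 CPM in sgKDM5C_4_sgKDM5D_4, 14.6, 12.7 and 13.8 CPM in sgKDM5C_5_sgKDM5D_2 and 11.3, 11.7 and 9.13 CPM in sgKDM5C_5_sgKDM5D_4. It rose in sgKDM5C_5 (0.86 ± 0.15, adjusted p = 7.3e-05) and fell by 0.97 on the log2 scale in sgKDM5D_4 (SE 0.16, adjusted p = 1.3e-05), whose libraries lay below every other library. ANKRD37, an ankyrin repeat gene with 5 to 15 counts per library, was called nowhere.

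Of 3 targets for glucose uptake and acid handling, CA12 (ENSG00000074410, chr15:63613577-63674045), which encodes a membrane carbonic anhydrase, was called in both directions. CA12 was at 242, 200.1 and 289.5 CPM in sgCtrl, 384, 375 and 373 CPM in sgKDM5C_4 and 309.6, 285 and 268 CPM in sgKDM5C_5. CA12 stood at 489.6, 366 and 342 CPM in the libraries labelled sgKDM5D_2 and at 128, 138 and 130.1 CPM in those labelled sgKDM5D_4. CA12 reached 315, 392 and 370.2 CPM in sgKDM5C_4_sgKDM5D_2, 277, 330.4 and 286 CPM in sgKDM5C_4_sgKDM5D_4, 589, 574 and 525 CPM in sgKDM5C_5_sgKDM5D_2 and 454, 433 and 485 CPM in sgKDM5C_5_sgKDM5D_4. CA12 rose in sgKDM5C_4 (0.63 ± 0.12, adjusted p = 2e-04), sgKDM5D_2 (0.71 ± 0.12, adjusted p = 7.1e-05), sgKDM5C_5_sgKDM5D_2 (1.21 ± 0.12, adjusted p = 6.2e-09) and sgKDM5C_5_sgKDM5D_4 (0.91 ± 0.12, adjusted p = 9.2e-07). The sgKDM5D_4 libraries were the lowest of the series, and CA12 fell there by 0.89 on the log2 scale (SE 0.12, adjusted p = 4.8e-07). SLC2A1, the basal glucose transporter, was called in no population although its counts were high (15595 to 38945 per library), and its log2 fold changes were -0.42 to 0.43. CA9, the carbonic anhydrase best known as a HIF-1 target, had 17 counts in all and was not tested. Of these, 4, 8 and 3 fell in the libraries labelled sgKDM5D_4, 1 in sgCtrl and 1 in sgKDM5C_4_sgKDM5D_4, and the other 6 populations had 0 counts, which allows up to 3 counts per library, or at most 0.143 CPM.

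Among 4 targets of lipid metabolism, PLIN2, which encodes the perilipin that coats lipid droplets, was at 109.6, 96.1 and 111 CPM in sgCtrl and rose in sgKDM5C_5_sgKDM5D_2 to 284, 301 and 257 CPM (1.41 ± 0.084, adjusted p = 9.6e-13) and in sgKDM5C_5_sgKDM5D_4 to 205, 211 and 196 CPM (0.95 ± 0.083, adjusted p = 1.3e-09). SCARB1, the receptor for high-density lipoprotein, was at 248, 232 and 241 CPM in sgCtrl and fell in sgKDM5D_4 to 113, 108 and 107 CPM (-1.14 ± 0.066, adjusted p = 1.1e-13). VLDLR, a receptor for triglyceride-rich lipoproteins, was at 48.5, 46.8 and 57.6 CPM in sgCtrl and fell in sgKDM5D_4 to 32.7, 34.0 and 32.0 CPM (-0.63 ± 0.082, adjusted p = 4.1e-07). Neither SCARB1 nor VLDLR reached the thresholds in another population, with SCARB1 at 0.57 and VLDLR at 0.55 in sgKDM5C_5_sgKDM5D_2. INSIG2, a regulator of sterol synthesis, was not called, with log2 fold changes of -0.12 to 0.40.

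Of 6 collagen and matrix enzymes, 5 were called in at least 1 population, each of them in 1 or 2. LOX (ENSG00000113083, chr5:121398890-121414108) encodes lysyl oxidase, which crosslinks collagen. LOX was at 2.82, 5.14 and 2.93 CPM in sgCtrl, 5.26, 4.82 and 5.80 CPM in sgKDM5C_4 and 3.68, 4.31 and 3.78 CPM in sgKDM5C_5. LOX stood at 2.59, 3.53 and 3.17 CPM in the libraries labelled sgKDM5D_2 and at 4.33, 3.85 and 4.12 CPM in those labelled sgKDM5D_4. LOX reached 8.06, 5.35 and 7.33 CPM in sgKDM5C_4_sgKDM5D_2, 2.34, 1.79 and 2.502 CPM in sgKDM5C_4_sgKDM5D_4, 3.34, 3.22 and 3.34 CPM in sgKDM5C_5_sgKDM5D_2 and 0.689, 0.823 and 0.752 CPM in sgKDM5C_5_sgKDM5D_4. LOX rose in sgKDM5C_4_sgKDM5D_2 (0.91 ± 0.18, adjusted p = 0.00035) and fell by 2.28 on the log2 scale in sgKDM5C_5_sgKDM5D_4 (SE 0.24, adjusted p = 2.9e-08), whose libraries held 17 to 22 counts and lay below all others. LOXL2, a related oxidase, rose in sgKDM5C_5_sgKDM5D_2 (0.79 ± 0.097, adjusted p = 3.3e-07). P4HA2 and P4HA1 encode alpha subunits of collagen prolyl hydroxylase. P4HA2 rose in sgKDM5C_4 (0.63 ± 0.081, adjusted p = 1.4e-06) and sgKDM5C_4_sgKDM5D_2 (0.64 ± 0.081, adjusted p = 8.9e-07), and P4HA1 fell in sgKDM5D_4 (-0.69 ± 0.10, adjusted p = 3.8e-06). All 18 libraries with a KDM5C guide (211.8 to 307.7 CPM) lay above the 9 others (152.8 to 196.5 CPM) for P4HA2. In the other populations with a KDM5C guide its log2 fold change was 0.34 to 0.46, less than 1.5-fold. PLOD2, a collagen lysyl hydroxylase, was called nowhere (-0.47 to 0.21). ERO1A, an oxidase of disulfide bond formation, was at 56.6, 80.1 and 60.6 CPM in sgCtrl and 109, 108 and 92.9 CPM in sgKDM5D_4, where it rose (0.65 ± 0.14, adjusted p = 0.00049). The 50 tested neighbours of ERO1A on chromosome 14, the chromosome of HIF1A, had a median of 0.75 in sgKDM5D_4, and relative to that median ERO1A was at -0.10.

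Of 4 targets of mitochondria and cell death, 2 were called higher in sgKDM5D_4, FAM162A and BNIP3. FAM162A encodes a mitochondrial protein linked to hypoxic cell death. FAM162A was at 14.3, 13.7 and 16.7 CPM in sgCtrl, 10.96, 9.29 and 8.68 CPM in sgKDM5C_4 and 10.3, 9.21 and 11.04 CPM in sgKDM5C_5. FAM162A stood at 9.92, 8.42 and 9.27 CPM in the libraries labelled sgKDM5D_2 and at 23.7, 22.6 and 21.6 CPM in those labelled sgKDM5D_4. FAM162A reached 9.43, 13.2 and 10.3 CPM in sgKDM5C_4_sgKDM5D_2, 10.1, 10.2 and 8.73 CPM in sgKDM5C_4_sgKDM5D_4, 10.6, 13.1 and 10.7 CPM in sgKDM5C_5_sgKDM5D_2 and 12.2, 12.4 and 11.1 CPM in sgKDM5C_5_sgKDM5D_4. FAM162A lay below sgCtrl in all 21 libraries of the other mutant populations (8.42 to 13.2 CPM) and above it in sgKDM5D_4. It rose in sgKDM5D_4 (0.60 ± 0.12, adjusted p = 0.00012) and fell in sgKDM5C_4 (-0.63 ± 0.12, adjusted p = 0.00031), sgKDM5D_2 (-0.70 ± 0.12, adjusted p = 0.00017) and sgKDM5C_4_sgKDM5D_4 (-0.63 ± 0.12, adjusted p = 0.00017). BNIP3, which marks mitochondria for autophagy, rose in sgKDM5D_4 from 66.0, 55.9 and 68.4 to 109, 104 and 101 CPM (0.73 ± 0.08, adjusted p = 2.5e-08), and the highest of the other 24 libraries was at 68.4 CPM. Its relative BNIP3L rose in sgKDM5C_5_sgKDM5D_2 (0.72 ± 0.14, adjusted p = 0.00014) and had a log2 fold change of 0.53 ± 0.14, adjusted p = 0.0028 in sgKDM5D_4, short of the thresholds. NDUFA4L2, a subunit-like inhibitor of respiratory complex I and a strong HIF target in kidney cancer, had only 0 to 23 counts per library and was not called against sgCtrl.

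Regulators of growth and transcription were called only in the sgKDM5C_5 double mutants. NDRG1 (ENSG00000104419, chr8:134249418-134314265), a stress-induced gene that restrains tumour cell spread in several tissues, had the widest range of all targets with at least 10 counts in every library. NDRG1 was at 186, 166 and 316 CPM in sgCtrl, 375, 374 and 374 CPM in sgKDM5C_4 and 553, 416 and 328 CPM in sgKDM5C_5. NDRG1 stood at 498, 292 and 246 CPM in the libraries labelled sgKDM5D_2 and at 102, 123 and 149 CPM in those labelled sgKDM5D_4. The replicates of sgCtrl, sgKDM5C_5 and sgKDM5D_2 spread widely, and sgKDM5D_2 overlapped sgCtrl. NDRG1 reached 281, 349.8 and 353 CPM in sgKDM5C_4_sgKDM5D_2, 149.8, 247 and 199 CPM in sgKDM5C_4_sgKDM5D_4, 2320, 2346 and 1594 CPM in sgKDM5C_5_sgKDM5D_2 and 571, 587 and 736 CPM in sgKDM5C_5_sgKDM5D_4. NDRG1 rose in sgKDM5C_5_sgKDM5D_2 (3.23 ± 0.26, adjusted p = 2.5e-10) and sgKDM5C_5_sgKDM5D_4 (1.504 ± 0.24, adjusted p = 2.9e-05), with 16.7-fold between the lowest and the highest population mean. DDIT4, an inhibitor of mTORC1 signalling, was at 40.6, 39.4 and 58.9 CPM in sgCtrl and 219, 235 and 127 CPM in sgKDM5C_5_sgKDM5D_2, where it rose (2.07 ± 0.28, adjusted p = 1.2e-06). In sgKDM5C_4 it was at 97.7, 100.1 and 83.8 CPM, and edgeR's adjusted p of 0.0065 (1.02 ± 0.27) missed the threshold. In the remaining populations its log2 fold change was -0.47 to 0.67, with no call. MXI1, an antagonist of MYC, rose in sgKDM5C_5_sgKDM5D_2 too (1.12 ± 0.10, adjusted p = 2.5e-09), as did the clock-related repressor BHLHE40 (0.78 ± 0.15, adjusted p = 2e-04). For MXI1 the 18 libraries with a KDM5C guide (14.74 to 33.53 CPM) lay above the 9 others (9.485 to 14.18 CPM), with a narrow gap. CCND1, the cyclin that HIF-2 induces in kidney cancer cells, was not called in any population (-0.41 to 0.44).

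The oxygenase JMJD6 was at 77.7, 65.0 and 69.7 CPM in sgCtrl and fell in sgKDM5C_4_sgKDM5D_4 to 46.0, 38.0 and 35.4 CPM (-0.83 ± 0.097, adjusted p = 1.8e-07). Its 50 neighbours on chromosome 17 had a median of -0.41 in that population, and the remainder of -0.42 was below 1.5-fold. KDM3A, a histone H3 lysine 9 demethylase induced by HIF, was called in no population, with log2 fold changes of -0.41 to 0.25.

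By role, sgKDM5C_5_sgKDM5D_2 had calls to higher levels in 4 of 4 secreted regulators, 4 of 5 vascular genes, 4 of 5 regulators of growth and transcription, 1 of 2 genes of glucose uptake and acid handling, 1 of 4 lipid genes, 1 of 6 matrix genes, 1 of 4 mitochondrial genes and 2 of 4 remaining targets, against 7.92% of all tested genes. In sgKDM5C_5_sgKDM5D_4 the counts were 3 of 4 secreted regulators, 3 of 5 vascular genes, 1 of 5 regulators of growth and transcription, 1 of 2 genes of glucose uptake and acid handling, 1 of 4 lipid genes and 2 of 4 remaining targets, against 3.3%. In sgKDM5D_4, the calls to lower levels were in 2 of 4 lipid genes and 1 each of the vascular, secreted, acid-handling, matrix and remaining targets, against 7.44%.

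Guides to the same gene were then compared directly. Between the KDM5C single mutants, 1 target was called higher and 1 lower in sgKDM5C_4 than in sgKDM5C_5, against 2.97% and 0.74% of all tested genes. EFNA1 was higher in sgKDM5C_4 (0.78 ± 0.15, adjusted p = 0.00036) and IGFBP3 was lower (-0.74 ± 0.11, adjusted p = 9e-06). The 2 calls dropped to 1 when any of the 3 sgKDM5C_4 libraries, or sgKDM5C_5 replicate 1 or 3, was left out. IGFBP1 differed by -0.45 ± 0.093, adjusted p = 0.00092, less than 1.5-fold, whereas for DTNA the difference was 0.12 ± 0.14 (adjusted p = 0.62).

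Between the KDM5D single mutants the difference was larger, with 10 targets higher and 5 lower in sgKDM5D_2 than in sgKDM5D_4. The background was high as well, 9.1% and 11.7% of all tested genes, against 27.8% and 13.9% of the targets. The lower calls are thus near the background. Higher in sgKDM5D_2 were IGFBP1 (1.90 ± 0.12), CA12 (1.60 ± 0.12), F3 (1.56 ± 0.082), NDRG1 (1.47 ± 0.25), TMEM45A (1.25 ± 0.16), SCARB1 (0.84 ± 0.066), IGFBP3 (0.78 ± 0.11), KDM3A (0.65 ± 0.077), VLDLR (0.59 ± 0.082) and NDUFA4L2. Lower in sgKDM5D_2 were FAM162A (-1.30 ± 0.12), ANGPTL4 (-1.003 ± 0.20), STC1 (-0.99 ± 0.16), BNIP3 (-0.95 ± 0.081) and ERO1A (-0.87 ± 0.15). For NDUFA4L2 the libraries labelled sgKDM5D_2 held 49 counts in all and those labelled sgKDM5D_4 held 3, a ratio of 17.1 after scaling to total counts with a 95% exact interval of 5.51 to 85.7 that covers counting error only. ANGPTL4, though higher than sgCtrl with both guides, thus differed between them, and IGFBP3, NDRG1, KDM3A and NDUFA4L2 differed between guides without a call against sgCtrl in either population.

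**Figure D4:**
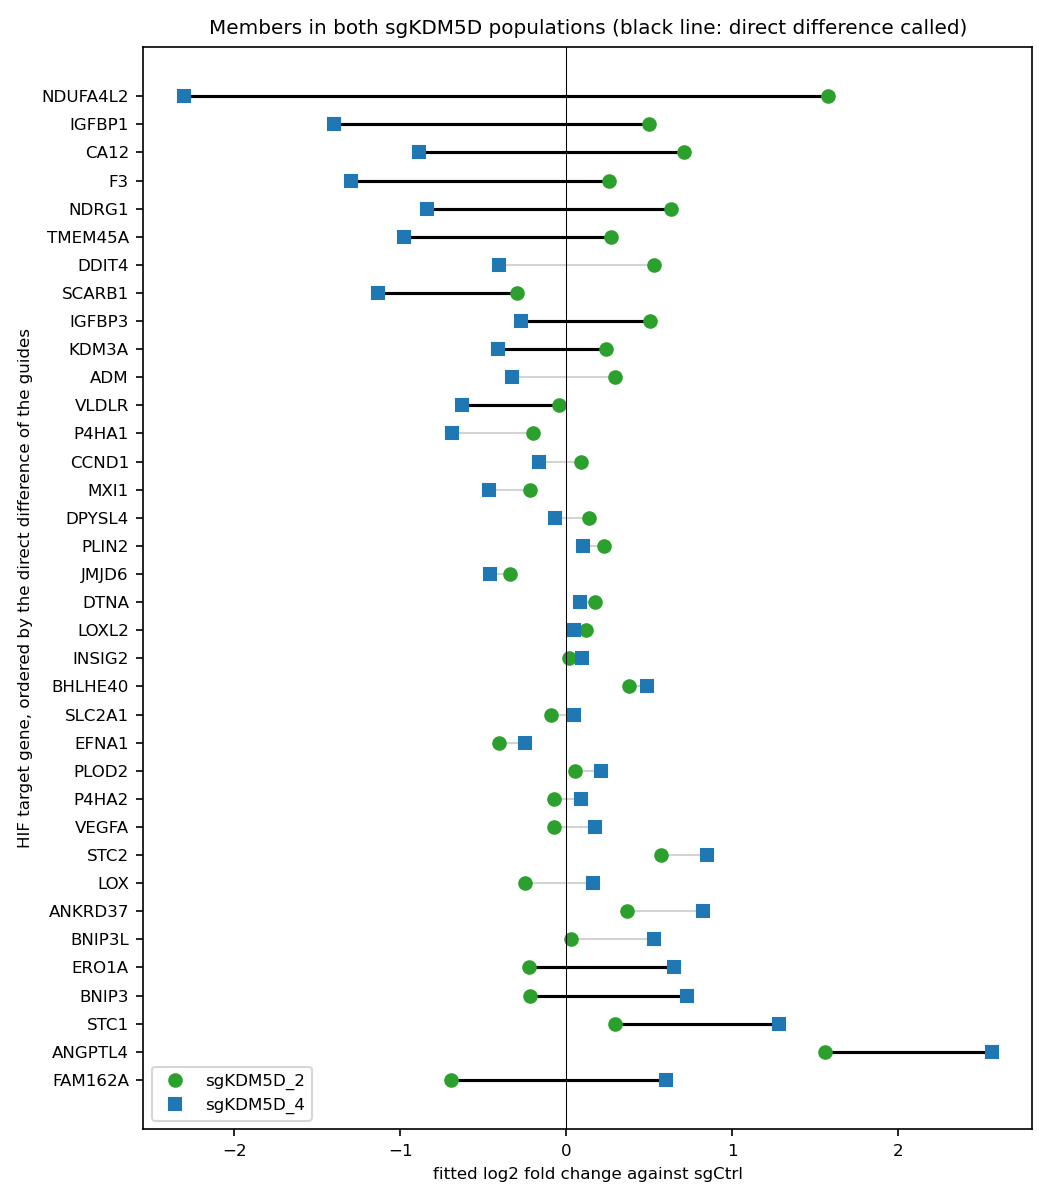
Fitted log2 fold change of each tested target against sgCtrl in the libraries labelled sgKDM5D_2 (green circles) and sgKDM5D_4 (blue squares), ordered by the direct difference between them, with a black line where that difference was called. In 15 of 36 targets the line is black, and for IGFBP1, CA12, F3, FAM162A and BNIP3, among others, the symbols lie on opposite sides of 0. The position of NDUFA4L2 rests on few counts and depends on the prior count of the fit.

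Averaged over guides, few targets were called between the double mutants and the KDM5C single mutants, 0 higher and 1 lower, against 1.27% and 0.347% of all tested genes. The target called was LOX (-0.87 ± 0.12, adjusted p = 5.2e-06). LOX means were 6.91 CPM in sgKDM5C_4_sgKDM5D_2, 2.21 CPM in sgKDM5C_4_sgKDM5D_4, 3.30 CPM in sgKDM5C_5_sgKDM5D_2 and 0.755 CPM in sgKDM5C_5_sgKDM5D_4. In the single mutants they were 5.29 CPM (sgKDM5C_4) and 3.92 CPM (sgKDM5C_5), so the double mutants did not move together. Standard errors of these averages cover the spread between libraries and not that between populations. At an unadjusted p under 0.05, 13 targets were higher and 6 lower in edgeR's test, and DESeq2, at an adjusted p under 0.001 and over 1.5-fold, called 0 higher and 1 lower. The share of all tested genes at the unadjusted threshold was not counted. At edgeR's adjusted p under 0.05 with no minimum change, 12 targets were higher and 5 lower, and 2687 of all tested genes were called. The count rose to 3 without sgKDM5C_4 replicate 1 and to 2 without sgKDM5C_5 replicate 1, sgKDM5C_4_sgKDM5D_2 replicate 1, sgKDM5C_4_sgKDM5D_4 replicate 1, sgKDM5C_5_sgKDM5D_2 replicate 3 or sgKDM5C_5_sgKDM5D_4 replicate 2.

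Relative to the KDM5D single mutants, the double mutants had 10 targets higher and 1 lower, against 6.52% and 6.44% of all tested genes. IGFBP1 (2.501 ± 0.07), DTNA (1.96 ± 0.11), NDRG1 (1.38 ± 0.16), F3 (1.36 ± 0.051), IGFBP3 (1.06 ± 0.067), ADM (0.93 ± 0.10), MXI1 (0.91 ± 0.066), CA12 (0.83 ± 0.073), SCARB1 (0.82 ± 0.042) and DPYSL4 (0.63 ± 0.052) were higher, and STC1 (-0.76 ± 0.099) was lower. Here too the standard errors do not cover the spread between populations. The STC1 mean was 35.4 CPM in sgKDM5C_5_sgKDM5D_2, above 12.5 CPM in sgKDM5D_2 and 24.9 CPM in sgKDM5D_4. In the other double mutants it was 9.40 CPM (sgKDM5C_4_sgKDM5D_2), 2.93 CPM (sgKDM5C_4_sgKDM5D_4) and 12.3 CPM (sgKDM5C_5_sgKDM5D_4). Without the 3 libraries labelled sgKDM5D_4 the count was 7 in place of 11, with 6 higher and 1 lower. In that fit 1245 of all tested genes were called, and the 7 targets are not named here, so the 11 need not hold against sgKDM5D_2 alone. CA12 means in the double mutants were 359.1, 297.8, 562.5 and 457.5 CPM, against 399.1 CPM in sgKDM5D_2 and 131.9 CPM in sgKDM5D_4. For SCARB1 they were 244.2, 167.1, 356.3 and 302.4 CPM, against 195.6 and 109.3 CPM.

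Since sgKDM5C_5_sgKDM5D_2 had the most calls, it was also compared with the single mutants of its own guides, a comparison added after these values were seen. Compared with sgKDM5C_5, 12 targets were higher and 0 lower, against 5.89% and 2.67% of all tested genes, and compared with sgKDM5D_2, 17 were higher and 0 lower, against 6.1% and 4.22%. The unadjusted p was under 0.05 for 3 and 0 lower targets, and DESeq2, at an adjusted p under 0.001 and over 1.5-fold, called 0 lower in either comparison. STC1 (2.37 ± 0.17), NDRG1 (2.27 ± 0.25), DDIT4 (1.498 ± 0.27) and ANGPTL4 (1.23 ± 0.19) differed most from sgKDM5C_5, and VEGFA (1.16 ± 0.12), ADM (1.13 ± 0.16) and PLIN2 (0.97 ± 0.083) were also higher. VLDLR was called higher than in sgKDM5C_5 (0.92 ± 0.081) and in sgKDM5D_2 (0.59 ± 0.081), although it had no call against sgCtrl in this double mutant. For IGFBP1 the difference from sgKDM5C_5 was 0.16 ± 0.092 and for DTNA 0.30 ± 0.14, neither of them called.

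Other HIF targets were given as context. Of 21 glycolytic genes, at most 4 were called higher in any population (sgKDM5C_5_sgKDM5D_4, background 3.3%), and their median log2 fold change was -0.094 to 0.26. At most 2 (9.52%) were called lower. This number was reached in sgKDM5C_4_sgKDM5D_2 (background 2.23%), sgKDM5C_4_sgKDM5D_4 (3.24%) and sgKDM5D_4 (7.44%), where it is near the background. SLC16A3, the lactate exporter, fell in all 4 double mutants, by 0.65 to 0.77 on the log2 scale. Of 18 tested further HIF targets outside the list, 5 were called higher in sgKDM5C_4 (against 3.21% of all tested genes), 3 in sgKDM5C_5 (2.03%), 2 in sgKDM5D_2 (1.89%), 2 in sgKDM5D_4 (10.7%), 4 in sgKDM5C_4_sgKDM5D_2 (3.83%), 1 in sgKDM5C_4_sgKDM5D_4 (5.86%), 8 in sgKDM5C_5_sgKDM5D_2 (7.92%) and 3 in sgKDM5C_5_sgKDM5D_4 (3.3%). Called lower were 1 in sgKDM5D_2 (1.34%), 3 in sgKDM5D_4 (7.44%) and 2 in sgKDM5C_4_sgKDM5D_4 (3.24%). The higher calls in sgKDM5D_4 and sgKDM5C_4_sgKDM5D_4 are thus near the background. CXCR4, a chemokine receptor, had 2, 3 and 3 counts in sgCtrl, against 49, 86 and 66 in sgKDM5C_4 and 32, 69 and 55 in sgKDM5C_5, and it was called higher in the 5 populations with a KDM5C guide other than sgKDM5C_4_sgKDM5D_4, which had 0, 4 and 1 counts. PPFIA4, a liprin gene, rose in both populations labelled with a KDM5D guide alone (1.39 ± 0.25 and 1.12 ± 0.26) and in sgKDM5C_4 (1.28 ± 0.25) and sgKDM5C_5_sgKDM5D_2 (2.02 ± 0.24).

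HIF binds DNA at a short core, ACGTG or GCGTG, and promoters of 6 targets, picked as examples after their values and matches were seen, are shown with these letters in capitals on either strand (CACGT and CACGC are the same cores read from the other strand, and an overlapping pair is capitalised as one run). Each window is the 250 bases before the transcription start in RefSeq, build GRCh38.p14, a different build from that of the counts, and reads 5′ to 3′ on the gene's strand. The first set is 3 of the 11 targets called higher in both sgKDM5C_5 double mutants. Of the others, ANGPTL4, STC2, CA12 and at least 1 window of DTNA also hold a core, F3 and DPYSL4 hold neither, and IGFBP1 and NDRG1 had no window.
ADM promoter, chr11:10304823-10305072, plus strand: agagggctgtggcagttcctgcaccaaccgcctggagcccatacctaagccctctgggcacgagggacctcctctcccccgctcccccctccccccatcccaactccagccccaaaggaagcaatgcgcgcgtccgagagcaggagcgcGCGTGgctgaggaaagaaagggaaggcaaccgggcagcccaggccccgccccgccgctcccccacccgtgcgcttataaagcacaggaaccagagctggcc
IGFBP3 promoter, chr7:45921273-45921522, minus strand: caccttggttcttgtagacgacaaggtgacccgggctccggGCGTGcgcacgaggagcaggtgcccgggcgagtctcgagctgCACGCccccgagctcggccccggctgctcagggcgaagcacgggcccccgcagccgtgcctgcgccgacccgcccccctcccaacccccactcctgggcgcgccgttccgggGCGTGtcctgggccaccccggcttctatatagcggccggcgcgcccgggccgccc
PLIN2 promoter, chr9:19127493-19127742, minus strand: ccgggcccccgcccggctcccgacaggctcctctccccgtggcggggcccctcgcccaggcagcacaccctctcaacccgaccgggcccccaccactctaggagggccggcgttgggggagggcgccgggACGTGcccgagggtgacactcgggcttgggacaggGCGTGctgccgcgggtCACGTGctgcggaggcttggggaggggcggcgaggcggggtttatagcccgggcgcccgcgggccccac

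The second set is 3 of the 6 targets called higher in the libraries labelled sgKDM5D_4. Of the others, ANGPTL4 and STC2 hold a core and STC1 had no window.
ERO1A promoter, chr14:52695559-52695808, minus strand: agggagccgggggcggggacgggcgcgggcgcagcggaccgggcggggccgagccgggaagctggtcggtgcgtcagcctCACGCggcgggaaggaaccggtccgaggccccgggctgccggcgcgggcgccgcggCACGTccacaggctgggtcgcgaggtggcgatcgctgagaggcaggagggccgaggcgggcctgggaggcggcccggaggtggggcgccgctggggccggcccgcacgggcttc
BNIP3 promoter, chr10:131981924-131982173, minus strand: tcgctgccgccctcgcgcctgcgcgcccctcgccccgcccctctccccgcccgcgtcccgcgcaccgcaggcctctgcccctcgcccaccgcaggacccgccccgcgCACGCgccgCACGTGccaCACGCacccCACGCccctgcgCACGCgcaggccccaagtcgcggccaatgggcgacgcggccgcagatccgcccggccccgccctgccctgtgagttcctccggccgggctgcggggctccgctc
FAM162A promoter, chr3:122383932-122384181, plus strand: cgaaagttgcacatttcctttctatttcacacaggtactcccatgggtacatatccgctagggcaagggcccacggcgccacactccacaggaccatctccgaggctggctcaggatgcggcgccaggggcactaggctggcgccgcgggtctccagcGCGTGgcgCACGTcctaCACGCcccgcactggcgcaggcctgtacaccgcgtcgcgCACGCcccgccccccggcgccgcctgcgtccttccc

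PLIN2, ERO1A, BNIP3 and FAM162A carry the core ACGTG in this window, whereas ADM and IGFBP3 carry GCGTG only. Of the 37 targets, 27 had at least 1 RefSeq promoter window, and 39 windows in all. ACGTG was present in 19 of the 39 windows (48.7%), against 18.5% of all 35116 promoter windows of the same length, and either core in 30 (76.9%), against 43.2%. By gene, 15 of the 27 had ACGTG in at least 1 window and 22 had either core. A match is a description of letters and not a binding site, and some targets have more than 1 window and these can overlap, so the windows are not independent. F3, SLC2A1, P4HA2, DPYSL4 and TMEM45A have neither core within these 250 bases.

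Of the 75 calls of a target against sgCtrl, 18 were lost when 1 library was left out, none of them with a change of sign. The calls lost are given with the range of the log2 fold change over the 6 refits. In the single mutants they were CA12 in sgKDM5C_4 without sgCtrl replicate 1, sgCtrl replicate 2 or its own replicate 1 (0.51 to 0.77), P4HA2 in sgKDM5C_4 without sgCtrl replicate 2 (0.55 to 0.68), FAM162A in sgKDM5C_4 without sgCtrl replicate 3, its own replicate 2 or its own replicate 3 (-0.73 to -0.54) and TMEM45A in sgKDM5C_5 without sgCtrl replicate 1, sgCtrl replicate 3, its own replicate 2 or its own replicate 3 (0.72 to 1.03). With KDM5D guides alone they were ANGPTL4 in sgKDM5D_2 without sgCtrl replicate 3 or its own replicate 1 (1.25 to 1.84), CA12 in sgKDM5D_2 without its own replicate 1 (0.54 to 0.85), FAM162A in sgKDM5D_2 without sgCtrl replicate 3, its own replicate 2 or its own replicate 3 (-0.75 to -0.61), VLDLR in sgKDM5D_4 without sgCtrl replicate 3 (-0.70 to -0.53), ERO1A in sgKDM5D_4 without sgCtrl replicate 1, sgCtrl replicate 3, its own replicate 1 or its own replicate 2 (0.54 to 0.81) and FAM162A in sgKDM5D_4 without sgCtrl replicate 1, sgCtrl replicate 2, its own replicate 1 or its own replicate 2 (0.53 to 0.69). Among double mutants with sgKDM5C_4 they were F3 in sgKDM5C_4_sgKDM5D_2 without sgCtrl replicate 3 (0.53 to 0.68), IGFBP3 in sgKDM5C_4_sgKDM5D_2 without sgCtrl replicate 1 or sgCtrl replicate 2 (0.54 to 0.77), LOX in sgKDM5C_4_sgKDM5D_2 without sgCtrl replicate 1, sgCtrl replicate 3, its own replicate 1 or its own replicate 3 (0.76 to 1.27), P4HA2 in sgKDM5C_4_sgKDM5D_2 without sgCtrl replicate 2 or its own replicate 2 (0.55 to 0.71) and FAM162A in sgKDM5C_4_sgKDM5D_4 without sgCtrl replicate 3 or its own replicate 3 (-0.66 to -0.54). With sgKDM5C_5 they were BNIP3L in sgKDM5C_5_sgKDM5D_2 without sgCtrl replicate 1, its own replicate 1 or its own replicate 2 (0.60 to 0.88), BHLHE40 in sgKDM5C_5_sgKDM5D_2 without sgCtrl replicate 2, its own replicate 1 or its own replicate 2 (0.71 to 0.84) and DPYSL4 in sgKDM5C_5_sgKDM5D_2 without its own replicate 2 (0.58 to 0.66). The calls of IGFBP1 and DTNA were kept in every refit. With the median of the 50 neighbouring genes removed, the change fell below 1.5-fold for P4HA2 (0.51) and FAM162A (-0.55) in sgKDM5C_4, CA12 in sgKDM5D_2 (0.52), IGFBP3 (0.50) and P4HA2 (0.57) in sgKDM5C_4_sgKDM5D_2, and BNIP3L (0.58) and DPYSL4 (0.58) in sgKDM5C_5_sgKDM5D_2, beside JMJD6 and ERO1A above. When only the populations compared were fitted, calls were lost for CA12 and FAM162A in sgKDM5C_4, ANGPTL4 and TMEM45A in sgKDM5C_5, all 3 in sgKDM5D_2, ERO1A and FAM162A in sgKDM5D_4, F3, IGFBP3, LOX, P4HA2 and DPYSL4 in sgKDM5C_4_sgKDM5D_2, FAM162A in sgKDM5C_4_sgKDM5D_4 and BNIP3L in sgKDM5C_5_sgKDM5D_2, each with the same sign. F3 in sgKDM5C_4_sgKDM5D_2 was also lost with no filter on low counts, and FAM162A in sgKDM5D_4 with edgeR's filterByExpr.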

How the data were processed

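RNA-seq was done on 27 libraries of 786-O cells, 3 for each of 9 populations. Per the labels, libraries were made with a TruSeq Stranded kit and sequenced as paired ends on a NovaSeq instrument. Per the submitters' processing notes the authors used Trimmomatic 0.38 and STAR 2.5.2b with GRCh37, and deposited raw read counts per Ensembl gene. The counting tool and its strand setting are not given in the sources used here. Of the identifiers, 2235 matched no gene symbol, with 0.574% of counts.

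Genes with fewer than 120 counts in all were left out, libraries were scaled by TMM, and all 17016 genes were fitted with edgeR 4.0.16 (quasi-likelihood test, R 4.3.3) over the 9 populations, with Benjamini-Hochberg adjustment over all genes tested. Calls needed both an adjusted p below 0.001 and a fold change above 1.5. The members and gene lists were chosen with earlier results of these data known. All 37 targets were accounted for, every target called against sgCtrl was named with its values, 12 were given in every library, and context genes were named where called the same way with both guides or in all 4 double mutants. On simulated data for sgKDM5C_4 against sgCtrl (16899 genes), 79.5% of 200 genes changed 2-fold were recovered, with 0 in the wrong direction and 0 unchanged genes called. Total counts were 20172482 to 43383929 per library, and intervals and floors cover counting error only. Replicates of a population differed beyond sampling noise. Alternatives were DESeq2 1.42.0, RLE factors, other filters, other thresholds, a fit of only the populations compared, a replicate block, removal of the median of the 50 nearest tested genes, and leaving out libraries.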

Additional observations from a re-analysis of the deposited data

Results flagged for a closer look

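Targets whose response differed between guides to the same gene by a direct test of that difference (edgeR's quasi-likelihood test, adjusted p under 0.001 and over 1.5-fold) are given as log2 differences. Between sgKDM5C_4 and sgKDM5C_5 these were EFNA1 (0.78) and IGFBP3 (-0.74).

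For sgKDM5D_2 against the libraries labelled sgKDM5D_4, the differences above 0 were IGFBP1 (1.90), CA12 (1.60), F3 (1.56), NDRG1 (1.47), TMEM45A (1.25), SCARB1 (0.84), IGFBP3 (0.78), KDM3A (0.65) and VLDLR (0.59). The fitted value of NDUFA4L2 (3.88) rests on 49 counts against 3 and depends on the prior count. The differences below 0 were FAM162A (-1.30), ANGPTL4 (-1.003), STC1 (-0.99), BNIP3 (-0.95) and ERO1A (-0.87). Their share, 13.9% of the targets, is near the 11.7% of all tested genes. For ERO1A, the median of its 50 tested neighbours on chromosome 14 was -0.89 in this comparison. The sgKDM5D_4 libraries are also those in which HIF1A was at 105 to 115 CPM, and the part of HIF1A in these differences was not tested.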

How the results depend on the processing

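Counts are of targets called in either direction. DESeq2, RLE factors and the fit without a filter on low counts kept all counts within 1.5 times those reported. With adjusted p under 0.05 and no minimum change, the counts were 20 in sgKDM5C_4, 16 in sgKDM5C_5, 12 in sgKDM5D_2, 21 in sgKDM5D_4, 19 in sgKDM5C_4_sgKDM5D_2, 18 in sgKDM5C_4_sgKDM5D_4, 28 in sgKDM5C_5_sgKDM5D_2, 23 in sgKDM5C_5_sgKDM5D_4, 9 between the KDM5C guides, 17 for double mutants against sgKDM5C, 26 against sgKDM5D and 23 for sgKDM5C_5_sgKDM5D_2 against sgKDM5C_5. Of all 17016 tested genes, 4077, 3635, 3752, 8104, 4231, 6083, 7569, 4920, 2762, 2687, 8996 and 6668 were called, in the same order. The background at this threshold is thus high. A fit of only the populations compared left 3 in sgKDM5C_4_sgKDM5D_2 and 0 in sgKDM5D_2, where 18 had an unadjusted p under 0.05 in edgeR and DESeq2 called 3 over all populations. Over all tested genes these fits called 402 and 201, and the share at the unadjusted threshold was not counted. These fits have fewer samples. For double mutants against sgKDM5C, 1 became 2 with filterByExpr and 3 with the median of neighbouring genes removed, and for double mutants against sgKDM5D 11 became 7 without sgKDM5D_4, an alternative chosen after seeing the data. ERO1A in sgKDM5D_4 turned from 0.65 to -0.10 with its neighbours' median removed. Of 75 calls of a target against sgCtrl, 16 were lost with only the populations compared, 9 with neighbours' medians removed (8 below 1.5-fold with the same sign, and ERO1A), and 1 each with filterByExpr and with no filter on low counts.

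Leaving out 1 library gave 1 to 2 between the KDM5C guides and 1 to 3 for double mutants against sgKDM5C. Replicate numbers did not pair the samples (24 pairs of libraries, correlations of -0.619 to 0.712, 6 over 0.1, and 5 of 27 libraries correlating best with their own number). With a replicate block the targets differing among the 9 populations were 33 in place of 34, and no other count changed. Depth limits CA9, NDUFA4L2 and ANKRD37, with at most 23 counts in any library.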
